A study of Mus musculus with 2 samples.

Results

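The Mir130 and Mir301 seed family was examined in small RNA of microRNA size from the mouse embryonic facial prominence, the tissue buds from which the face and jaws form. Its members were the 4 genes Mir130a, Mir130b, Mir301 (also called Mir301a) and Mir301b, chosen by their GENCODE symbols, a rule that uses no measured value, of 1973 miRNA gene entries in the count tables. The samples were 2 libraries of the strain B6NCrl at embryonic day 12.5. Replicate 1 came from a pool of 120 embryos and replicate 2 from a pool of 88 embryos, both of mixed sex and labelled as biological replicates. There was no second tissue, stage, genotype or treatment, so the comparisons are between the members, and between the pools. Each level is in CPM, the reads on the gene's own strand divided by the sum of such reads over all miRNA genes and scaled to 1000000.

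A microRNA guides an Argonaute protein to messenger RNAs that pair with its seed, the bases 2 to 8 of the mature strand, and so lowers the output of those messages. MicroRNAs with the same seed share many predicted targets, and the miR-130 and miR-301 strands form such a family in vertebrates. The family is known for work on vessel growth, on TGF-beta and BMP signalling and on cell growth, and it has been studied in endothelium, smooth muscle and tumours. A hairpin precursor is cut into a 5p and a 3p arm, and the seed that names the family lies on the 3p arm.

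The mature strands show why the genes are treated as a family, and their sequences are from RefSeq on GRCm38.p6, which held the hairpins of 4 of the 4 genes and the 3p strands of 3. They are given 5′ to 3′ with the seed in capitals.
miR-130a-3p: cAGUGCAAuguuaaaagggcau
miR-130b-3p: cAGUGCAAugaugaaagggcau
miR-301a-3p: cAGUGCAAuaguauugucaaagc
These 3 strands had the same seed. The hairpin of Mir301b is printed with the same 7 bases in capitals, since miR-301b-3p was not in the table.
Mir301b hairpin, minus strand, chr16:17124400-17124496: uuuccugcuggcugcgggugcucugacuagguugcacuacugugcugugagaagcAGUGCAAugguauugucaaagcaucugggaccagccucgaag

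Beyond the shared seed the family split into a Mir130 and a Mir301 form. Windows of 22 bases were read from each hairpin, starting 1 base before the 7 shared bases, and positions were counted from 1 at the window's 5′ end. The first 9 bases were the same in all 4 windows. The windows of Mir130a and Mir130b differed at 2 positions (U11A and A13G, with Mir130a first). The windows of Mir301 and Mir301b differed at 1 position (A10G, with Mir301 first). Between the forms, 9 to 11 of the 22 positions differed.

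The deposited counts join both arms of a hairpin, so the 5p strands are shown too. Their bases 2 to 8 are in capitals.
miR-130a-5p: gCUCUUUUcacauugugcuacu
miR-130b-5p: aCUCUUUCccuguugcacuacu
miR-301a-5p: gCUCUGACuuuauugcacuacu
miR-301b-5p: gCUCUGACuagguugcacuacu
The 5p strands of Mir301 and Mir301b shared CUCUGAC, which began no other of the 1738 mature strands in the table at that place. Those of Mir130a and Mir130b carried CUCUUUU and CUCUUUC. The reverse complement of the family seed, UUGCACU, occurred in the 5p arm of Mir130b, Mir301 and Mir301b but nowhere in the hairpin of Mir130a. That motif was present in 1.39% of the 1005 hairpins of the table. In the minimum free energy folds, which had energies from -22.1 kcal/mol (Mir130a) to -39.1 kcal/mol (Mir301b), all 7 bases of the seed were paired in each of the 4 hairpins.

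The members lay at 3 places in the genome. Mir130a (ENSMUSG00000065484.1) lay on the minus strand at chr2:84741115-84741178 on GRCm38, the assembly of mm10. It had no annotated host gene, and the nearest same-strand gene that was no miRNA was Gm19426, 990 bases upstream. Mir301 (ENSMUSG00000065589.1) lay on the plus strand at chr11:87113004-87113089, in an intron of Ska2, which encodes a subunit of the spindle and kinetochore complex. Mir130b (ENSMUSG00000065572.1), on the minus strand at chr16:17124061-17124142, and Mir301b (ENSMUSG00000076288.1) were neighbours with 257 bases between them. Both lay in introns of the protein-coding gene 2610318N02Rik, and no other annotated miRNA gene lay within 10 kb of a member on its strand. Not every host transcript reached the members: 3 of the 8 annotated for 2610318N02Rik spanned each of these 2 genes, and 2 of the 3 for Ska2 spanned Mir301.

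Depth was high for 3 of the members and moderate for Mir301b. Replicate 1 held 4719337 own-strand reads on miRNA genes and replicate 2 held 5929220, which were 41.3% and 46.3% of all reads. Reads that map to several places, 26.0% and 27.9% of all reads, were counted to no gene. No member shared a stretch of 20 bases with another gene of the tables, and the longest stretch that members shared with each other was 16 bases (Mir301 and Mir301b). How many mismatches the alignment allowed is not stated in the sources used here, which bears on Mir301 and Mir301b, whose windows differ at 1 position. Reads opposite to the 4 genes numbered 3 in replicate 1 and 2 in replicate 2. Of the marker lists, mesenchyme and cartilage genes held 6.11% and 6.07% of counts, epithelial genes 1.82% and 2.07%, and the endothelial gene Mir126a 2.90% and 2.72%. Most of the mesenchyme and cartilage sum was Mir214, at 45770 CPM. Striated muscle genes held 0.107% and 0.147%, erythroid genes 0.0223% and 0.0331%, leukocyte genes 0.0298% and 0.0306%, and the liver gene Mir122 0.00138% and 0.00135%. A stretch of 20 bases was shared with another gene by 1 of 3 mesenchyme and cartilage genes and 2 of 3 striated muscle genes. None of the 4 neural marker genes reached 10 counts in both libraries, and Mir9-2 and Mir124a-1 had 0 counts. All 4 share a stretch of 20 bases with another gene, so these low counts do not bear on how much neural RNA was present, and the neural gene Mir137, named after its values were seen, stood at 789 CPM. In bulk tissue, fewer cells of a type and less RNA per cell cannot be told apart, and which cells gave the family's reads was not tested.

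All 4 members were detected, that is, had at least 10 counts in both libraries, as did 395 of all genes. Together they held 3.75% of counts in replicate 1 (exact Clopper-Pearson interval 3.73 to 3.77) and 4.35% in replicate 2 (4.34 to 4.37). The mean was 4.05% ± 0.427 (SD, n = 2), or 40517 ± 4268 CPM. These intervals cover counting error only, and the libraries' intervals did not overlap. The median level of the 4 members was 5090 CPM, against 122 CPM over all detected genes.

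Mir130a, known from work on vessel growth and blood cell development, was the leading member. Its level was 27469 CPM (exact Poisson interval 27320 to 27619) in replicate 1 and 32843 CPM (32698 to 32990) in replicate 2, with a mean of 30156 ± 3800 CPM (SD, n = 2). By mean level it ranked 10 of the 395 detected genes, at rank 11 in replicate 1 and 7 in replicate 2. Replicate 2 was the higher library.

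Mir130b differs from Mir130a at 2 bases of the window and has the lower level. Its level was 7632 CPM (interval 7553 to 7711) in replicate 1 and 8324 CPM (8251 to 8398) in replicate 2, a mean of 7978 ± 489 CPM (n = 2) at rank 31. Again replicate 2 was the higher library.

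The Mir301 genes were the lower members. Mir301, in the intron of Ska2, measured 2224 CPM (interval 2182 to 2267) in replicate 1 and 2181 CPM (2143 to 2219) in replicate 2, a mean of 2202 ± 30.5 CPM (n = 2) at rank 72. The intervals of its libraries overlapped. Mir301b, the neighbour of Mir130b, measured 174 CPM (162 to 187) in replicate 1 and 187 CPM (176 to 198) in replicate 2, a mean of 181 ± 8.98 CPM (n = 2) at rank 173. These were 822 and 1108 counts, and the intervals overlapped.

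**Figure D1:**
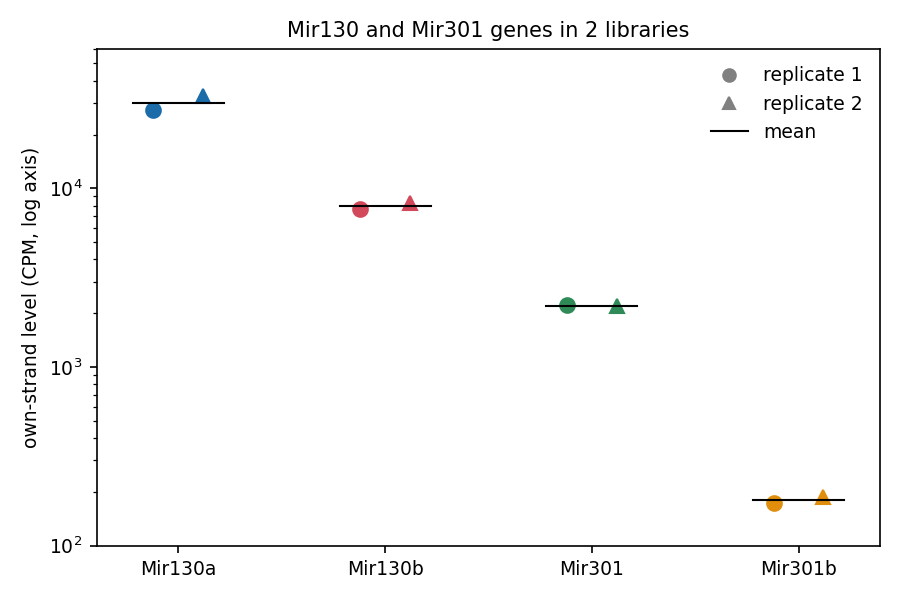
Level of each member in each library, as own-strand CPM on a log axis; circles are replicate 1, triangles replicate 2 and bars the mean. The order from Mir130a (27469 and 32843 CPM) down to Mir301b (174 and 187 CPM) is the same in both libraries, and no 2 genes overlap.

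The order of levels was Mir130a, Mir130b, Mir301 and Mir301b in both libraries, and each step was larger than the spread between libraries. Mir130a exceeded Mir130b 3.60-fold in replicate 1 and 3.95-fold in replicate 2. Mir130b exceeded Mir301 3.43-fold and 3.82-fold. The step from Mir301 to Mir301b was the widest, at 12.8-fold and 11.7-fold. From the highest to the lowest member the ratio was 158-fold and 176-fold. Ratios between genes can also reflect how well each sequence is captured in a library, which was not tested.

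**Figure D2:**
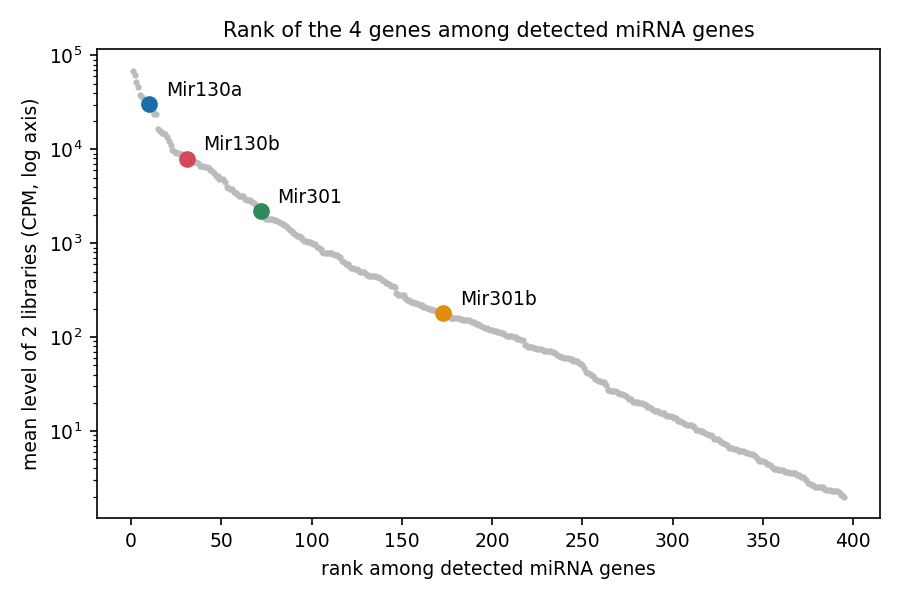
Mean level of the 395 detected miRNA genes in CPM (log axis) against their rank, with the 4 members in colour. They are spread from rank 10 (Mir130a) to rank 173 (Mir301b), all above the median of 122 CPM.

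Mir130a made up most of the family's reads. Its share of the 4 genes' counts was 73.3% in replicate 1 (exact interval 73.0 to 73.5) and 75.4% in replicate 2 (75.3 to 75.6), a mean of 74.3% ± 1.55 (n = 2). Mir130b followed with 20.4% and 19.1%. The shares of Mir301 were 5.93% and 5.01%, and those of Mir301b were 0.464% and 0.429%. Mir130a thus held a larger share in replicate 2, and each of the other 3 a smaller one. The exact intervals of the Mir301b share overlapped (0.433 to 0.497 in replicate 1 and 0.404 to 0.455 in replicate 2). Shares within the family depend on each other, so a larger share of Mir130a lowers the rest. In CPM, Mir130b and Mir301b were higher in replicate 2. The difference for Mir130a passed a two-sided Fisher's exact test (p = 2.03e-59), which covers counting error only.

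The other genes with the family's seed that were counted added no reads on their own strands. The seed AGUGCAA was at bases 2 to 8 of 7 of the 1738 mature strands in RefSeq, or 0.403%, of which 3 belonged to members. The other 4 were miR-130c, miR-6341, miR-6389 and miR-721. Mir130c, Mir6341 and Mir6389 had 0 counts in both libraries, which allows up to 0.636 CPM in replicate 1 and 0.506 CPM in replicate 2. Mir721 had no entry under its symbol among the counted genes, so its reads were not analysed here. miR-130c is printed to show how close it is to miR-130a-3p, with its seed in capitals.
miR-130c: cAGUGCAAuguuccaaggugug

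In the reads that were counted, genes whose seed overlaps the family's at an offset of 1 base summed to far less than the family. In this list the miR-19 strands, known from the growth-promoting miR-17-92 cluster, carry GUGCAAA, and the miR-148 and miR-152 strands carry CAGUGCA, so each shares 6 bases with AGUGCAA. A strand of each kind is printed with its seed in capitals.
miR-19a-3p: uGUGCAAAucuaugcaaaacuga
miR-148a-3p: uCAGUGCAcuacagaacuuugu
All 6 genes were detected, and they summed to 1494 CPM in replicate 1 and 1473 CPM in replicate 2. The family's sum was 25.1-fold and 29.6-fold higher. Mir148a led the list at 1048 ± 67.5 CPM, below Mir301 and above Mir301b. Mir148b stood at 195 ± 40.2 CPM, close to Mir301b, Mir152 at 112 ± 16.2 CPM and Mir19a at 93.0 ± 3.92 CPM. Mir19b-1 (26.8 ± 0.993 CPM) and Mir19b-2 (8.26 ± 1.20 CPM) share their mature strand, and reads that map to both places were counted to neither. The sum of the 6 genes lacks those reads, so the 25.1-fold and 29.6-fold values would be lower with them.

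By level in both libraries, each member had close neighbours of other families. Likeness was the Euclidean distance of log2(CPM + 1) over the 2 libraries, too few to show a shared pattern. Nearest to Mir130a were Mirlet7g (distance 0.15), Mir126a of endothelium (0.28) and Mir26b (0.35). Mir18 (0.15), Mir127 (0.18) and Mir205 (0.22) were nearest to Mir130b. For Mir301 the nearest were Mir181a-1 (0.04), Mir425 (0.11) and Mir98 (0.22), and for Mir301b Mir27a (0.05), Mir449a (0.09) and Mir410 (0.12).

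Between the pools the members differed little in size. None of the 4 reached a 2-fold difference beyond counting error, by an exact binomial test that used edgeR's TMM library sizes, adjusted by Benjamini-Hochberg over the 395 genes. Of these genes, 4.05% met that rule. With no limit on size, 2 of the 4 passed (also 2 at an unadjusted p below 0.05), against 51.9% of the detected genes. Both were higher in replicate 2. Of the 205 detected genes that passed, 107 were higher in replicate 2, which is 27.1% of the detected genes. Passing or not, 197 of the 395 were higher there. Among the 31 genes at or above the level of Mir130b, a set chosen after the values were seen, 83.9% passed. The test compares the 2 pools of embryos on their reads, not conditions.

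With TMM library sizes, the log2 ratio of replicate 2 over replicate 1 was 0.25 for Mir130a (exact interval 0.24 to 0.26), a 1.19-fold difference whose p was too small for the software to represent. It was 0.12 for Mir130b (interval 0.10 to 0.14, exact binomial adjusted p = 1.61e-32), or 1.09-fold. Mir301 had a ratio of -0.03 (interval -0.07 to 0.00, exact binomial adjusted p = 0.134) and Mir301b one of 0.10 (interval -0.04 to 0.23, adjusted p = 0.239). The median of the members' log2 ratios was 0.11, against -0.0026 over all detected genes. The absolute ratio of Mir130a was exceeded by 46.1% of the detected genes, and those of Mir130b, Mir301b and Mir301 by 69.1%, 73.9% and 88.4%. With a biological coefficient of variation fixed at 0.2, edgeR's exact test passed 0 of the 4 members (adjusted p = 1 for each, unadjusted p from 0.538 for Mir130a to 0.935 for Mir301), and 0.506% of the detected genes.

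**Figure D3:**
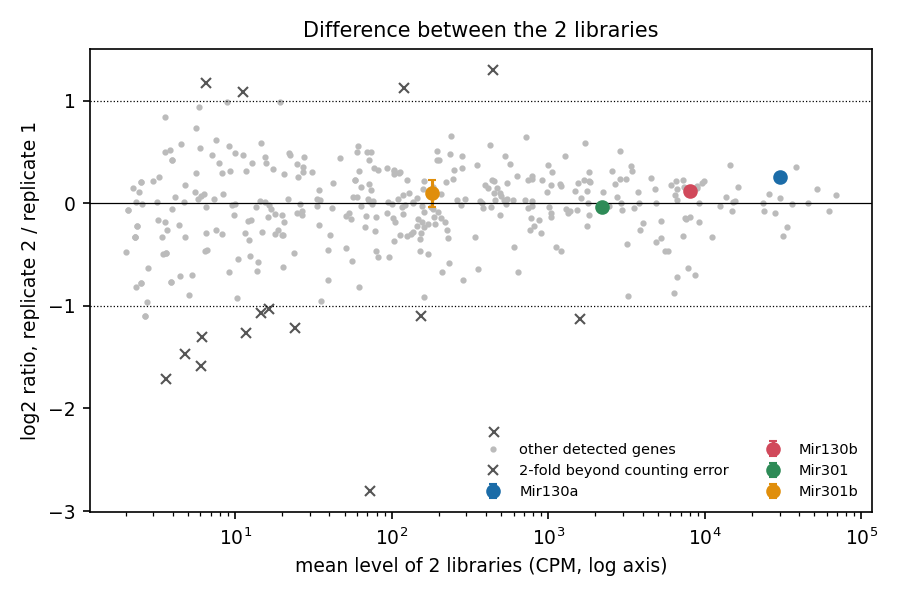
Log2 ratio of replicate 2 over replicate 1 for the 395 detected genes against mean level in CPM (log axis); bars on the 4 coloured members are exact 95% counting intervals, and dotted lines mark 2-fold. The members lie between -0.03 and 0.25, and crosses are the genes with a 2-fold difference beyond counting error.

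The gap in the family's sum between the pools lay mainly in Mir130a. Replicate 1 had a sum of 37499 CPM and replicate 2 one of 43535 CPM, and with TMM library sizes the log2 ratio was 0.21 (exact interval 0.20 to 0.22). Of the gap of 6036 CPM, 5374 CPM or 89.0% lay in Mir130a. Without Mir130a the other 3 genes summed to 10030 and 10692 CPM.

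Ratios between members were compared between the pools for all 6 pairs, which needs no scaling of the libraries. Of these, 4 pairs passed Fisher's exact test after Benjamini-Hochberg adjustment over the 6. The pairs reuse the same 4 genes, so they are not separate results, and every pair with Mir130a passed. That test covers counting error between 2 pools only. The share of all gene pairs that would pass is not given here, and 51.9% of single detected genes passed the exact binomial test. The ratio of Mir130a to Mir301 moved most, from 12.4 in replicate 1 to 15.1 in replicate 2, a factor of 1.22 (Wald 95% interval 1.19 to 1.25, exact adjusted p = 6.65e-47). The ratio of Mir130b to Mir301 was 1.11 times as large in replicate 2 (interval 1.08 to 1.15). Those of Mir130a to Mir130b and to Mir301b were 1.10 and 1.11 times as large, with Fisher's exact adjusted p of 1.83e-31 and 0.0297. Mir301 to Mir301b, at 0.914 times (interval 0.832 to 1.00, exact adjusted p = 0.0758), did not pass.

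The neighbours Mir130b and Mir301b stood in a close ratio in both libraries. Mir130b made up 97.8% of the reads of the pair in replicate 1 (exact interval 97.6 to 97.9) and 97.8% in replicate 2 (97.7 to 97.9), a mean of 97.8% ± 0.0251 (n = 2). The ratio of Mir130b to Mir301b was 43.8 in replicate 1 and 44.5 in replicate 2, and its change by a factor of 1.02 (interval 0.928 to 1.11) did not pass Fisher's exact test (p = 0.727). The interval includes the factor of 1.10 found for Mir130a to Mir130b.

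Other neighbouring miRNA genes give a scale for this pair. There were 41 pairs of consecutive detected genes on the same strand with at most 1000 bases between them, where neither gene shared a 20-base stretch with another gene. Their median ratio of higher to lower level was 7.54-fold, with quartiles of 2.96 and 29.2. Mir130b with Mir301b had a 44.2-fold ratio, and 5 of the pairs had a larger one. The genes of a pair differed in their log2 ratio between the libraries by a median of 0.25, and Mir130b and Mir301b by 0.02, with 36 pairs differing more. Counting error enters each of these differences and was not removed, so the ranking does not show that this pair is more stable. The interval of Mir301b's own log2 ratio was -0.04 to 0.23. These are descriptions of pairs that share clusters and libraries, and the pairs were chosen after the values were seen.

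**Figure D4:**
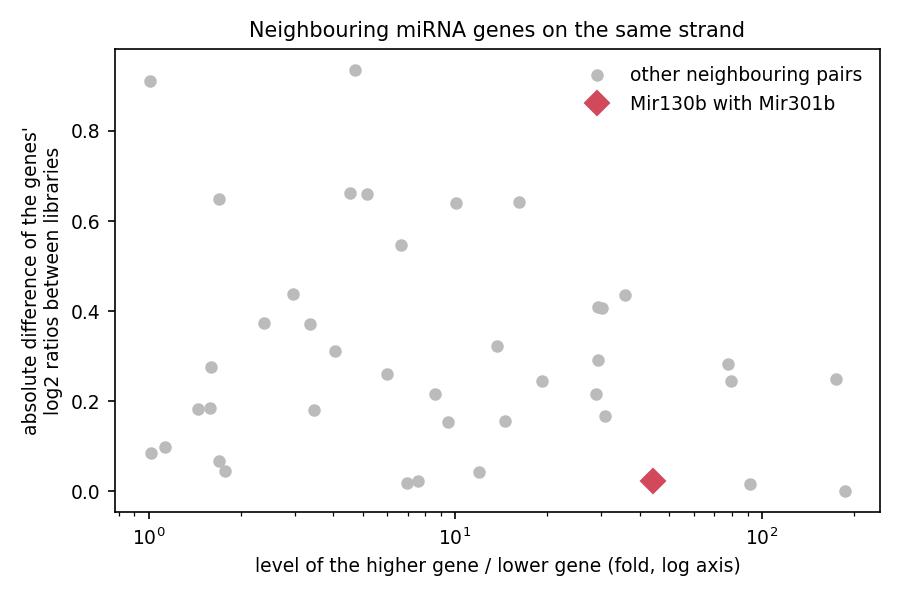
The 41 pairs of neighbouring miRNA genes, by the ratio of the higher to the lower level (log axis) and by the absolute difference of the genes' log2 ratios between the libraries; the diamond is Mir130b with Mir301b. It lies at a ratio of 44.2 and a difference of 0.02, toward the right and near the lower edge of the plot.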

How the data were processed

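Per the README texts, each library's table holds the raw read count of each miRNA gene as the authors deposited it, without scaling or pooling, aligned to mm10 with GENCODE annotation M4. Which aligner, counter and trimmer were used is not given in the sources used here. The labels call them biological replicates of small RNA with a size range below 30 bases. The tables had 3 count columns without a header. The first was the sum of the others, and the second, which held 96.8% and 96.7% of reads on genes, was taken as the gene's own strand. Reads that were unmapped (25.7% and 19.4%), mapped to several places, or lay outside genes (5.57% and 4.72%) stayed out of library sizes. No arm of a hairpin was counted separately.

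Symbols and positions came from GENCODE M21 and sequences from RefSeq. TMM sizes and the edgeR exact test came from edgeR 4.0.16 (R 4.3.3), size factors from DESeq2 1.42.0, folds from ViennaRNA 2.7.2, and the other tests from scipy 1.17.1. With 1 library on each side, no quasi-likelihood fit was possible. Levels are means ± SD of 2 libraries. The genes named were the members, their nearest genes by level, neighbours within 10 kb, hosts, genes with the family's seed and 6 genes with offset seeds. The symbol rule for the members uses no measured value, but the family and the lists were picked with earlier results of these data known. Alternatives were other library sizes, count minimums, both strands, a fixed coefficient of variation and leaving out each replicate.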

Additional observations from a re-analysis of the deposited data

How the results depend on the processing

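The order of the 4 members was the same with both strands counted and with either replicate left out. The family's summed level ranged from 37499 to 43535 CPM with 1 replicate left out, and stood at 17841 CPM when all reads in the tables, unmapped and multiply mapped ones included, formed the denominator. The share of Mir130a in the family ranged from 73.3% to 75.4%, and that of Mir130b in its pair was 97.8% with either replicate left out. No member reached a 2-fold difference under any of the 6 alternatives. The number of members past the adjusted threshold at any size was 2, and fell to 0 in edgeR's exact test at a preset coefficient of 0.2. It was 3 with a minimum of 100 counts or with both strands counted, where Mir301 passed at log2 ratios of -0.07 and -0.04 (exact binomial adjusted p of 0.000394 and 0.0365). Over all alternatives the log2 ratio of Mir130a ranged from 0.22 to 0.27, that of Mir130b from 0.08 to 0.14, that of Mir301b from 0.06 to 0.11 and that of Mir301 from -0.07 to -0.02. Over all detected genes, 16 were called at 2-fold, 20 with no count minimum (781 genes tested), 6 with a minimum of 100 counts (277 genes tested) and 2 in edgeR's exact test, and 205 at any size against 2 in edgeR's exact test. Leaving out a replicate left no difference between libraries to test. No paired analysis was possible because the study has 1 group. Depth limits Mir301b most, since its 822 and 1108 counts give the widest interval of the log2 ratio among the 4.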

Other observations

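The 7 bases of the family's seed occurred anywhere in 12 of the 1005 RefSeq hairpins (1.19%). Besides the members and the hairpins of Mir130c, Mir6341, Mir6389 and Mir721, these were Mir362, Mir5128, Mir759 and Mir882, where they began no mature strand at base 2. Mir362, on chromosome X, had 1064 counts in replicate 1 and 1580 in replicate 2. Mir5128 had 7 and 6 counts, Mir882 had 1 and 1, and Mir759 had 0 and 1.

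The pairs of neighbouring genes with a larger ratio than Mir130b and Mir301b, named after their values were seen, lay in a pair of clusters. In the imprinted Dlk1-Dio3 cluster on chromosome 12 they were Mir1197 with Mir323 (187-fold), Mir487b with Mir539 (91.4-fold) and Mir341 with Mir1188 (77.4-fold). In the miR-17-92 cluster on chromosome 14 they were Mir19a with Mir20a (175-fold) and Mir18 with Mir19a (79.7-fold). With genes that share a stretch included, 11 of 64 pairs had a larger ratio than Mir130b and Mir301b. Some of those lay elsewhere, such as Mir99a with Mirlet7c-1 on chromosome 16 (613-fold).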
